A study of Mus musculus with 6 samples.

Results

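The ephrin, Slit-Robo and netrin guidance genes were taken by symbol from the deposited count table: the Eph receptors and ephrins, the Slits and Robos, the netrins with their receptors Dcc, Neo1 and Unc5, and the netrin-G genes. The rule found 41 of the 24421 genes in the table. RNA came from nuclei sorted out of the mPFC (medial prefrontal cortex) in Foxp2-Cre mice, labelled as Foxp2 positive neurons, with 3 libraries from mice given CFA, the inflammatory irritant complete Freund's adjuvant used in pain models, and 3 from mice given saline. All 6 libraries share the Foxp2-Cre allele and a bilateral AAV injection that delivered KASH-GFP, a fluorescent protein held at the nuclear envelope, 4 weeks before collection. The labels give neither age, sex and strain background nor the dose and timing of CFA, and they do not say whether each replicate is a separate animal or a pool. The p-values therefore refer to the spread among these 6 libraries alone, and that spread may be technical in part. Cre marks whatever cells express Foxp2, which in cortex are mainly corticothalamic neurons of the deep layers, and the sort was checked only through marker genes.

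Guidance genes steer growing axons, and many stay on in the adult brain, where they act at synapses and dendritic spines. Ephrins are membrane-bound ligands that signal to Eph receptor tyrosine kinases on the touching cell and can also signal back into their own cell. Slits are secreted and mostly repel axons through Robo receptors. Netrins are secreted laminin-like proteins that attract axons through Dcc or neogenin and repel them through Unc5 receptors.

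Library totals ranged from 9673038 to 11850741 counts, of which the 41 genes took 0.225% to 0.269%. Levels are given as CPM (counts scaled to the TMM-adjusted library size) when a gene is compared between libraries, and as CPM per kilobase of counted exon when genes are compared with each other. The corticothalamic markers fixed for the check of the sort summed to 980 to 1110 CPM in CFA and 1020 to 1240 CPM in saline libraries, with Foxp2 itself at 24.0 to 34.9 and 28.3 to 43.7 CPM. Of these 8 markers 1 had a positive log2 fold change in CFA and 7 a negative one, with 0 called. Inhibitory markers summed to 108 to 177 CPM over all libraries and oligodendrocyte markers to 232 to 387 CPM, so transcripts of other cells were present. Vascular and meningeal markers summed to 3.56 to 10.3 CPM, with the endothelial marker Cldn5 at a count of 0 in 5 of the 6 libraries. Striatal markers stood out in saline replicate 1, at 699 CPM against 191 to 355 CPM elsewhere, and 0 of the 5 tested had a positive log2 fold change. In such bulk libraries fewer cells of a type and less RNA per cell cannot be told apart.

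No guidance gene differed between CFA and saline at the threshold. Of the 41 genes, 33 passed the low-count filter and were tested, and 0 were called by edgeR's quasi-likelihood test (adjusted p below 0.05), where 0% of all 13560 tested genes were. At an unadjusted p under 0.05 there were again 0 guidance genes, against 3.22% of all tested genes (1.35% higher and 1.87% lower in CFA), and DESeq2 and limma-voom also called 0. The tested members leaned slightly upward in CFA, with 20 of 33 positive (49.8% of all tested genes) and a median log2 fold change of 0.091 (all tested genes, -0.001). That lean rested on saline replicate 1, which was the lowest library for 11 of the 33 members (33.3%, against 18.4% of all tested genes). Without it 16 of 33 were positive and the median was -0.012. Saline replicate 3 pulled the other way. It was the highest library for 10 of the 33 members (30.3%, against 23.9% of all tested genes), and without it 25 of 33 were positive. Saline replicate 1 is also the library with the high striatal markers, whose part in the result was not tested. For 3 of the 33 genes, 9.09%, the CFA and saline libraries were fully separate, beside 7.51% of all tested genes. Epha4 and Ephb1 were higher in every CFA library, a pattern seen in 3.55% of all tested genes, and Epha5 was lower, as were 3.97%.

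**Figure D1:**
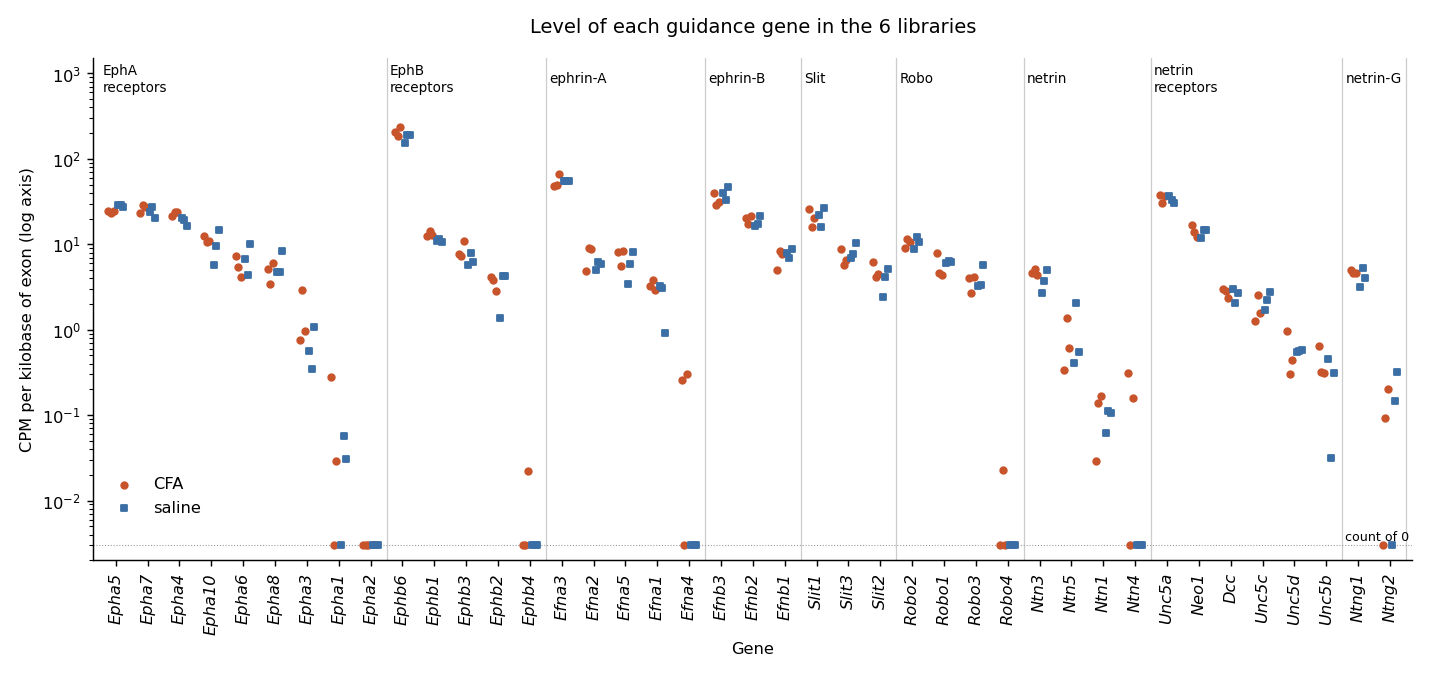
Level of each of the 41 guidance genes in CPM per kilobase of counted exon (log axis), with 1 point per library, circles for CFA and squares for saline. Genes are ordered by level within each role group, and a count of 0 is drawn on the dotted line. Ephb6 lies above every other member in all 6 libraries, and 8 genes at the bottom of their groups were too low to be tested.

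EphA receptors, which mainly bind GPI-anchored ephrin-A ligands, were led by 3 genes of similar level. Epha5 averaged 26.2 ± 2.42, Epha7 25.2 ± 3.25 and Epha4 20.8 ± 2.80 CPM per kilobase (SD, n = 6 libraries). Epha5 and Epha7 changed places between libraries, with Epha5 higher in 4 of 6, while Epha7 was above Epha4 in 6 of 6 although their ranges met. Epha10, whose protein lacks kinase activity, followed at 10.7 ± 3.05, then Epha6 at 6.31 ± 2.18, Epha8 at 5.39 ± 1.66 and Epha3 at 1.10 ± 0.921 CPM per kilobase. At the bottom, Epha1 had between 0 and 11 counts and Epha2 had a count of 0 in every library, which allows up to 0.25 to 0.304 CPM per library. Neither was tested.

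Epha4 is unusual among Eph receptors in binding ligands of both ephrin classes, and in adult cortex it acts at dendritic spines. It lies on chromosome 1, 77367185 to 77515088 (mm10, minus strand). It was at 137, 150 and 150 CPM in CFA replicates 1 to 3 and at 128, 123 and 103 CPM in saline replicates 1 to 3. The lowest CFA library was thus just above the highest saline library, and saline replicate 3 was lowest of all. The log2 fold change was 0.30 ± 0.17 (SE), and edgeR's quasi-likelihood test gave an adjusted p of 1 (unadjusted, 0.0949). Without any 1 library it ran from 0.21 (without saline replicate 3) to 0.36.

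Epha5, a receptor for ephrin-A ligands that is most abundant in brain, lies on chromosome 5, 84054765 to 84417382 (minus strand). It was at 192, 180 and 191 CPM in CFA and 222, 226 and 213 CPM in saline libraries. It was the member with the least relative spread, with a coefficient of variation of 9.23% over the 6 libraries, and every CFA value lay below every saline value. Its log2 fold change was -0.23 ± 0.16 (SE; unadjusted p = 0.168 and adjusted p = 1 in edgeR's quasi-likelihood test).

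Epha3 had the smallest unadjusted p of all members, 0.0706 in edgeR's quasi-likelihood test, and owed it to 1 library. It was at 3.00, 11.6 and 3.85 CPM in CFA and 2.24, 1.39 and 4.26 CPM in saline libraries. CFA replicate 2 was far above the rest, and the other CFA libraries lay within the saline range. Its log2 fold change of 1.22 ± 0.63 (SE) came down to 0.38 when CFA replicate 2 was left out, and was 1.75 without saline replicate 3. It was also the member with the highest coefficient of variation, 83.7%, on 15 to 131 counts per library.

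Epha6 was at 30.7, 22.8 and 17.4 CPM in CFA and 28.2, 18.5 and 42 CPM in saline libraries, for a log2 fold change of -0.32 ± 0.30 (SE). Its groups overlapped widely, saline replicate 3 was the highest, and without that library the log2 fold change was 0.02. Epha7 overlapped as well, at 185, 229 and 221 CPM in CFA and 193, 217 and 161 CPM in saline libraries. Epha10 ranged from 31.1 CPM in saline replicate 1 to 81.2 CPM in saline replicate 3, so that the saline libraries enclosed all 3 CFA values (58.3 to 68.6 CPM). Its log2 fold change of 0.18 ± 0.27 was -0.11 without saline replicate 1 and 0.57 without saline replicate 3. Epha8 overlapped too, with a log2 fold change of -0.29 ± 0.29 that was 0.03 without saline replicate 3.

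EphB receptors, which mainly bind transmembrane ephrin-B ligands, were dominated by a single gene. Ephb6, a receptor that lacks kinase activity and works together with other Eph receptors, averaged 194 ± 26.3 CPM per kilobase (SD, n = 6 libraries). It exceeded 98.0% of all tested genes on that scale and made up 89.3% of the EphB sum. Its level alone was 1.71 to 2.40 times the sum of all 9 EphA genes, depending on the library. Together with Epha10, the kinase-inactive receptors summed to 161 to 246 CPM per kilobase, against 103 to 114 for the other 12 Eph genes. Ephb6 lies on chromosome 6, 41605482 to 41620507 (mm10, plus strand). The 250 bases before its start site are shown because this receptor carries most of the Eph transcript; they are from RefSeq (GRCm38.p6, the same build), chr6:41605261-41605510, plus strand, with each CG in capitals.

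Ephb6: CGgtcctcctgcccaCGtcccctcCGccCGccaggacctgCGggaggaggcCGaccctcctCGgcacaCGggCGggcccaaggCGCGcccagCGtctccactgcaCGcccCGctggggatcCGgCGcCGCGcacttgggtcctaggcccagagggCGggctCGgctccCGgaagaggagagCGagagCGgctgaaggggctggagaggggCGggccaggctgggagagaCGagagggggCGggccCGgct

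This window holds 27 CG dinucleotides (the motif CG reads the same on both strands), a number reached by 8.56% of 32851 promoter windows of the same length. At least 1 CG was present in 92.1% of them, and their median was 6. Windows were matched for 36 of the 41 guidance genes, with a median of 16.5. The tested members had a median of 20.0 (29 genes, 2 to 46), and the untested members of 9 (7 genes, 2 to 26), so the ranges overlapped fully. The genes not matched were Dcc, Efnb3, Ntn1, Slit1 and Unc5d.

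By library, Ephb6 was at 785, 702 and 882 CPM in CFA and 584, 706 and 712 CPM in saline libraries. CFA replicate 2 fell just below saline replicates 2 and 3, and saline replicate 1 was the lowest, so the groups overlapped. The log2 fold change was 0.24 ± 0.17 (SE; unadjusted p = 0.181 and adjusted p = 1 in edgeR's quasi-likelihood test), and 0.15 without saline replicate 1.

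Ephb1, an active receptor kinase (chromosome 9, 101922128 to 102354693, minus strand), was the second of the EphB genes at 12.1 ± 1.41 CPM per kilobase. It was at 58.7, 67.3 and 59.3 CPM in CFA and 51.2, 54.0 and 49.3 CPM in saline libraries. All 3 CFA values lay above all 3 saline values, with a gap of a few CPM between the groups. The log2 fold change was 0.26 ± 0.18 (SE), and edgeR's quasi-likelihood test gave an adjusted p of 1 (unadjusted, 0.171).

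Ephb3, another active receptor (chromosome 16, 21204795 to 21223304, plus strand), was at 31.7, 29.9 and 45.8 CPM in CFA and 23.8, 32.5 and 25.5 CPM in saline libraries. CFA replicate 3 stood above the rest and the groups overlapped. The log2 fold change was 0.39 ± 0.24 (SE) and was 0.18 without CFA replicate 3. Ephb2, at 3.46 ± 1.15 CPM per kilobase, was between 13.7 and 20.7 CPM in all libraries but saline replicate 1 (6.71 CPM). Ephb2 had a log2 fold change of 0.13 ± 0.37, or -0.24 without saline replicate 1. The log2 fold changes of the 4 tested EphB genes were thus positive (0.13 to 0.39), for Ephb2 only while that library was included, and 0 were called. Ephb4, best known from venous endothelium, had 1 count in CFA replicate 3 and 0 in the other libraries.

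Beside the 3 genes without overlap, some cell type markers also did not overlap between the groups, as was so for 7.51% of all tested genes. These markers were named after their values were seen, and their number was not tested against that share. Astrocyte markers summed to 201 to 286 CPM in CFA and 172 to 187 CPM in saline libraries, with 4 of 6 genes positive. Aldoc made up most of it, at 150 to 209 and 108 to 134 CPM. Slc1a3 and Fgfr3 were also higher in every CFA library, while Aqp4, Gfap and Gja1 overlapped. Oligodendrocyte precursor markers summed to 23.5 to 31.2 and 14.7 to 18.8 CPM, with 2 of 3 tested genes positive. Most of that sum was Olig1, at 17.7 to 23.9 and 10.3 to 13.7 CPM. At low levels, Gpr17 (2.98 to 5.57 against 0 to 0.984 CPM) and Pdgfra (0.416 to 1.83 against 0 to 0.358 CPM) were also higher in every CFA library. Gpr17 had a count of 0 in saline replicate 3 and Pdgfra in saline replicate 2. Cspg4 went the other way, lower in every CFA library (0.961 to 2.2 CPM) than in any saline library (3.75 to 3.80 CPM). Upper layer and intratelencephalic markers summed to 325 to 355 and 272 to 317 CPM, with 4 of 6 genes positive. Lamp5 made up most of this sum, at 271 to 304 and 200 to 265 CPM, and the other markers of the list overlapped. In other lists, the corticothalamic marker Ntsr1 was lower in every CFA library (11.6 to 15.6 CPM) than in any saline library (18.7 to 22.8 CPM). The striatal marker Rarb was lower as well (4.81 to 7.57 against 8.11 to 18.1 CPM). Of these marker genes 0 were called, and their part in the values of Epha4, Ephb1 and Epha5 was not tested.

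**Figure D2:**
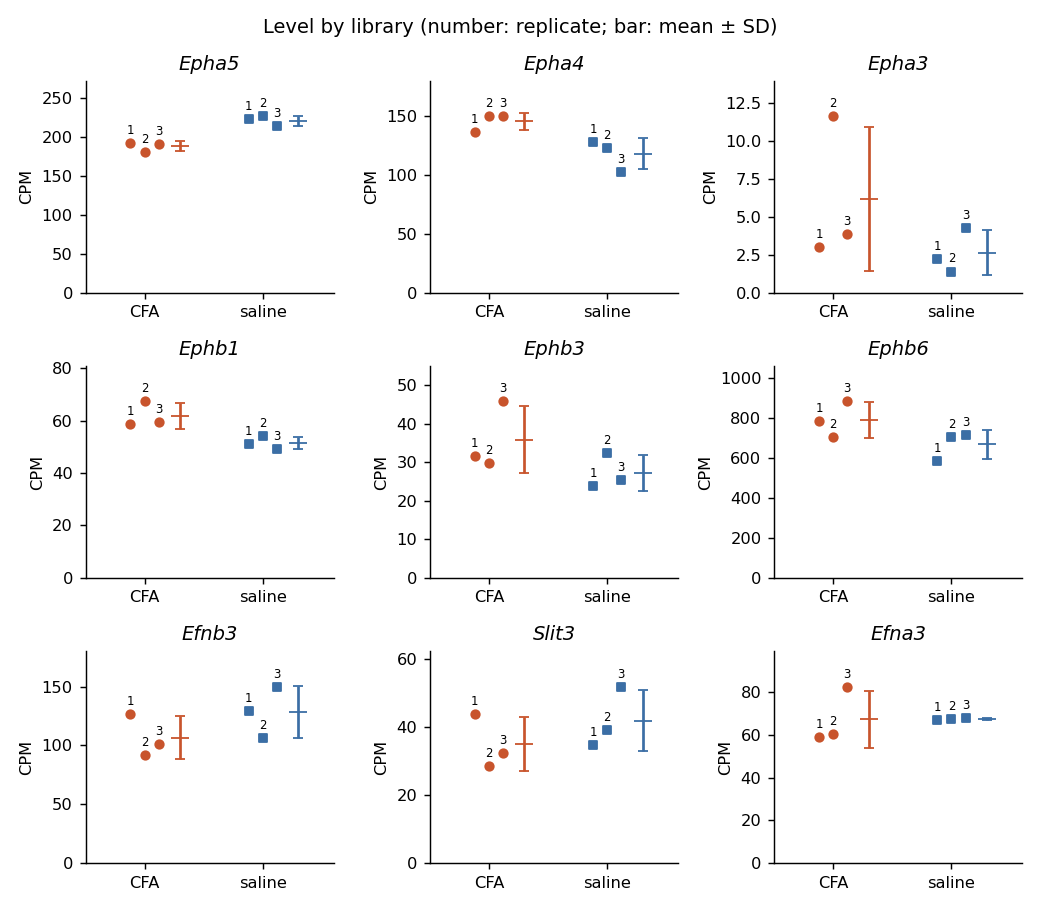
CPM by library for 9 guidance genes, in separate panels that start at 0, with circles for CFA, squares for saline, the replicate number above each point and the mean ± SD of 3 libraries beside them. Epha5, Epha4 and Ephb1 separate the groups, with means of 188 and 220, 145 and 118, and 61.7 and 51.5 CPM, while Epha3 is set by CFA replicate 2 (11.6 CPM).

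Among the ephrin-A ligands, Efna3 was far above its relatives. It averaged 55.0 ± 6.87 CPM per kilobase (SD, n = 6 libraries), 72.7% to 82.4% of the ephrin-A sum in each library, and exceeded 88.0% of all tested genes. Efna2 (6.65 ± 1.86) and Efna5 (6.59 ± 1.95) could not be ordered, with Efna2 the higher in 4 of 6 libraries. Efna1 followed at 2.87 ± 1 CPM per kilobase, and Efna4 was untested, with 5, 0 and 5 counts in CFA and 0 in every saline library.

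Efna1, Efna3 and Efna4 are neighbours on chromosome 3, all on the minus strand, with 34.0 kilobases between Efna1 and Efna3 and 10.5 kilobases between Efna3 and Efna4. Efna1 spans 89271730 to 89280951, Efna3 89314951 to 89322879 and Efna4 89333393 to 89338028 (mm10). Their levels nevertheless ranged from 55.0 (Efna3) to 0.0936 (Efna4) CPM per kilobase. The 250 bases before the start site nearest the counted gene model are shown to set these adjacent genes of unequal level side by side. They are from RefSeq (GRCm38.p6, minus strand), at chr3:89280952-89281201 for Efna1, chr3:89322940-89323189 for Efna3 and chr3:89338029-89338278 for Efna4, with each CG in capitals.

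Efna3: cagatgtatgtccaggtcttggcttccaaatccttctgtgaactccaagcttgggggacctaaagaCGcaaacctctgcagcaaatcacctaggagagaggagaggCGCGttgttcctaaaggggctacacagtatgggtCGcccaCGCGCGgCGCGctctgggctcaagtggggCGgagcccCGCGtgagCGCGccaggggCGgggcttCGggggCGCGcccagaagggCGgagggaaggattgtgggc
Efna1: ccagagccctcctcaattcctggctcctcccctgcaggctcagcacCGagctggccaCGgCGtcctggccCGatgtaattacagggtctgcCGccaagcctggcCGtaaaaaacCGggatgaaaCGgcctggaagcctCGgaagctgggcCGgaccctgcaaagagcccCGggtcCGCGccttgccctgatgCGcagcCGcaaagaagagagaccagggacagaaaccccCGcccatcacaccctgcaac
Efna4: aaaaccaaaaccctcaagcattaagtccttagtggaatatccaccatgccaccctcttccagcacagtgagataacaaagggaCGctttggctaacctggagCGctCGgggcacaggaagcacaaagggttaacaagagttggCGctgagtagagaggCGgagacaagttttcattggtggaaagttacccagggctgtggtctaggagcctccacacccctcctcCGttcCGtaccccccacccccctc

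The Efna3 window holds 19 CG, the Efna1 window 16 and the Efna4 window 7. As many or more are found in 19.7%, 25.4% and 46.3% of promoter windows. The order of the CG numbers followed the order of the levels in these 3 genes, which is a description of 3 windows.

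Efna3 was at 58.9, 60.2 and 82.6 CPM in CFA and 66.9, 67.4 and 67.9 CPM in saline libraries. The saline libraries lay inside the CFA range, and the means were nearly equal, at 67.2 ± 13.3 and 67.4 ± 0.488 CPM (SD, n = 3 libraries each). The log2 fold change was 0.00 ± 0.19 (SE). Efna2 was at 10.3, 19.3 and 18.8 CPM in CFA and 10.6, 13.4 and 12.6 CPM in saline libraries. CFA replicates 2 and 3 were above all saline libraries and CFA replicate 1 was below them, with a log2 fold change of 0.41 ± 0.30 (0.25 without CFA replicate 2). Efna5, which encodes an ephrin known for topographic mapping, was lowest in saline replicate 1 (18.3 CPM) and between 29.4 and 44.4 CPM in the other libraries. Its log2 fold change of 0.35 ± 0.28 was 0.08 without saline replicate 1 and 0.66 without saline replicate 3. Efna1 was lowest in saline replicate 3 (1.52 CPM), and its log2 fold change of 0.48 ± 0.53 was 0.10 without that library.

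The ephrin-B ligands, whose cytoplasmic tails can signal into the cell that carries them, kept a fixed order. Efnb3 averaged 36.6 ± 6.71, Efnb2 19.1 ± 2.27 and Efnb1 7.46 ± 1.38 CPM per kilobase, and the ranges of the 3 genes did not meet over the 6 libraries. Efnb3, the ligand that restrains corticospinal axons at the midline (chromosome 11, 69554092 to 69560237, minus strand), was at 127, 91.9 and 101 CPM in CFA and 129, 106 and 150 CPM in saline libraries. CFA replicate 1 lay among the saline values, and the log2 fold change was -0.27 ± 0.19 (SE; unadjusted p = 0.184 in edgeR's quasi-likelihood test). Without CFA replicate 1 it was -0.42, and without saline replicate 3 it was -0.14. Efnb2 was at 87.8, 75.7 and 92.2 CPM in CFA and 70.7, 74.6 and 93.0 CPM in saline libraries, with overlap and a log2 fold change of 0.10 ± 0.18. Efnb1, on the X chromosome, was at 16.8 to 28.2 and 23.1 to 29.8 CPM.

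Summed over the families, the 14 Eph genes reached 264 to 359 CPM per kilobase and the 8 ephrins 122 to 148. Without Ephb6 the other 4 EphB genes summed to 24.4, 25.5 and 26.6 in CFA and 18.1, 23.7 and 21.0 in saline libraries. These sums did not overlap, but they were formed after the values were seen and carry no test. The EphA sum was 95.4, 97.8 and 97.9 in CFA and 90.5, 94.7 and 98.0 in saline libraries, nearly constant over all 6. Within it the lower values of Epha5 and the higher values of Epha4 in CFA stood beside each other.

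Slit ligands were led by Slit1, at 21.0 ± 4.72 CPM per kilobase (SD, n = 6 libraries), above Slit3 at 7.68 ± 1.68 and Slit2 at 4.41 ± 1.27. The order held in 6 of 6 libraries, although the ranges of Slit3 and Slit2 met. Slit1 (chromosome 19, 41600257 to 41743856, minus strand) was at 136, 82.7 and 105 CPM in CFA and 114, 83.4 and 140 CPM in saline libraries. Both groups spanned nearly the same range, with a log2 fold change of -0.06 ± 0.22 (SE). Slit3 was at 43.7, 28.6 and 32.4 CPM in CFA and 34.7, 38.9 and 51.8 CPM in saline libraries, for a log2 fold change of -0.26 ± 0.23. Without saline replicate 3, its highest library, the log2 fold change was -0.08, and without CFA replicate 1 it was -0.46. Slit2 was lowest in saline replicate 1 (20.7 CPM) and highest in CFA replicate 1 (53.6 CPM), with a log2 fold change of 0.35 ± 0.27. It was 0.10 without saline replicate 1, 0.13 without CFA replicate 1 and 0.59 without saline replicate 3.

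Robo receptors were led by Robo2, at 10.5 ± 1.34 CPM per kilobase, then Robo1 at 5.89 ± 1.25 and Robo3 at 3.86 ± 1.05. Robo2 was at 73.0, 93.0 and 85.5 CPM in CFA and 70.5, 97.8 and 84.7 CPM in saline libraries, with replicate 1 of each group the lowest and a log2 fold change of -0.01 ± 0.19 (SE). Robo1 was at 59.1, 34.9 and 33.2 CPM in CFA and at 45.5, 47.8 and 47.0 CPM in saline libraries. The saline libraries were close together and lay between CFA replicate 1 and the other CFA libraries, with a log2 fold change of -0.14 ± 0.24. For Robo3 the log2 fold change was -0.15 ± 0.29, and 0.17 without saline replicate 3. The 3 tested Robo genes had log2 fold changes smaller than their standard errors (-0.01 to -0.15), and each took both signs when 1 library at a time was left out. The summed Slit level was 1.28 to 1.96 times the summed Robo level.

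Robo3, known from axon crossing at the midline, and Robo4, known from vascular endothelium, lie end to end on chromosome 9 on opposite strands. Robo4 spans 37401897 to 37414023 and Robo3 37416045 to 37433175 (mm10), with 2.02 kilobases between them. Robo3 had 146 to 265 counts in every library, whereas Robo4 had 1 count in CFA replicate 2 and 0 in the other 5. The 250 bases before each start site are shown because these adjacent paralogs differed so widely, from RefSeq (GRCm38.p6) at chr9:37433176-37433425 (minus strand) for Robo3 and chr9:37401722-37401971 (plus strand) for Robo4, with each CG in capitals.

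Robo3: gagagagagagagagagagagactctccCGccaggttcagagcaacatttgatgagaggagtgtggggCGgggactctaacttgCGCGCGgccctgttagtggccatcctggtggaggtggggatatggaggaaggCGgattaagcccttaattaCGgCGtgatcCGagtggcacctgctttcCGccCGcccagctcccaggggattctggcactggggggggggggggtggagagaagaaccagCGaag
Robo4: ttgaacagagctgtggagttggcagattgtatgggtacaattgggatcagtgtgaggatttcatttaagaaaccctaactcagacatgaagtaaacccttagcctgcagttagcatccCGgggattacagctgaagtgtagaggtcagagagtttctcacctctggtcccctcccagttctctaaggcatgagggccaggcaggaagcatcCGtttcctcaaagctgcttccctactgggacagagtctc

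The Robo3 window holds 12 CG, reached by 33.5% of promoter windows, and the Robo4 window 2, reached by 81.2%. Ntn5 also has only 2 and was among the tested members, at 9 to 49 counts per library. Its counted exons overlap those of Sec1, so some of these counts may be Sec1 reads. Whether the CG number bears on the level was not tested.

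Netrin transcripts summed to 5.36 CPM per kilobase on average, against 53.7 for their receptors, mainly Unc5a (63.4%) and Neo1 (26.3%). On average Ntn3 was still above Dcc (2.66 CPM per kilobase), Unc5c, Unc5d and Unc5b. Ntn1, the best known netrin, had 2, 9 and 10 counts in CFA and 4, 7 and 6 counts in saline libraries and was not tested. Ntn4, a netrin of basement membranes, had 9, 0 and 4 counts in CFA and 0 in all saline libraries. Its CFA counts came from replicates 1 and 3 alone, and it too was outside the test. Ntn3 was the main netrin, at 22.4, 25.4 and 21.7 CPM in CFA and 13.2, 18.4 and 24.8 CPM in saline libraries, for a log2 fold change of 0.30 ± 0.27 (SE) with overlap (0.10 without saline replicate 1). Ntn3 averaged 4.28 ± 0.929 CPM per kilobase, and its counted exons share 89 bases with Tbc1d24 on the same strand. Ntn5 was at 0.749, 3.09 and 1.35 CPM in CFA and 0.895, 4.54 and 1.22 CPM in saline libraries. It was highest in replicate 2 of each group, with a log2 fold change of -0.36 ± 0.82 and full overlap. Its counted exons share 519 of 2216 bases with Sec1 on the opposite strand. The library kit does not mark strand, so reads within the shared bases cannot be told apart. Whether such reads were counted or dropped is not given.

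Among netrin receptors, Unc5a was highest at 34.0 ± 3.36 CPM per kilobase, above 80.1% of all tested genes. Neo1 (neogenin) followed at 14.1 ± 1.88, Dcc at 2.66 ± 0.390 and Unc5c at 2.01 ± 0.587, and Unc5d (0.565 ± 0.218) and Unc5b (0.344 ± 0.200) were low. Unc5a made up 89.3% to 94.0% of the Unc5 sum in each library. Unc5a (chromosome 13, 54949432 to 55006018, plus strand) was at 151, 120 and 144 CPM in CFA and 144, 131 and 120 CPM in saline libraries. These groups covered almost the same range, with a log2 fold change of 0.07 ± 0.17 (SE). Neo1 was at 125, 102 and 89.8 CPM in CFA and 88.6, 110 and 109 CPM in saline libraries, also with overlap and a log2 fold change of 0.04 ± 0.19.

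Dcc, the attractive receptor, was at 24.6 to 31.0 CPM in CFA and 21.0 to 31.2 CPM in saline libraries, for a log2 fold change of 0.09 ± 0.23 (SE). Unc5c was at 11.6, 23.9 and 14.8 CPM in CFA and 16, 20.9 and 25.5 CPM in saline libraries. CFA replicate 2 lay within the saline range, and the log2 fold change of -0.31 ± 0.30 was -0.66 without that library and -0.11 without CFA replicate 1. Unc5d had a log2 fold change of 0.01 ± 0.50 (-0.60 without CFA replicate 1) and Unc5b, lowest in saline replicate 2 (0.185 CPM), of 0.66 ± 0.83 (0.14 without that library).

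The netrin-G genes encode GPI-anchored synaptic adhesion proteins that bind the NGL proteins and not the netrin receptors. Ntng1 was at 27.5, 25.2 and 25.1 CPM in CFA and 17.2, 29.1 and 22.1 CPM in saline libraries. Its CFA libraries were close together and lay inside the saline range, with a log2 fold change of 0.19 ± 0.24 (SE) that was 0.01 without saline replicate 1, its lowest library. Ntng2 had 0 to 6 counts per library and was not tested. Part of its counted exon sequence, 272 of 1924 bases, is shared with another gene model on the same strand, where reads may have been dropped.

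**Figure D3:**
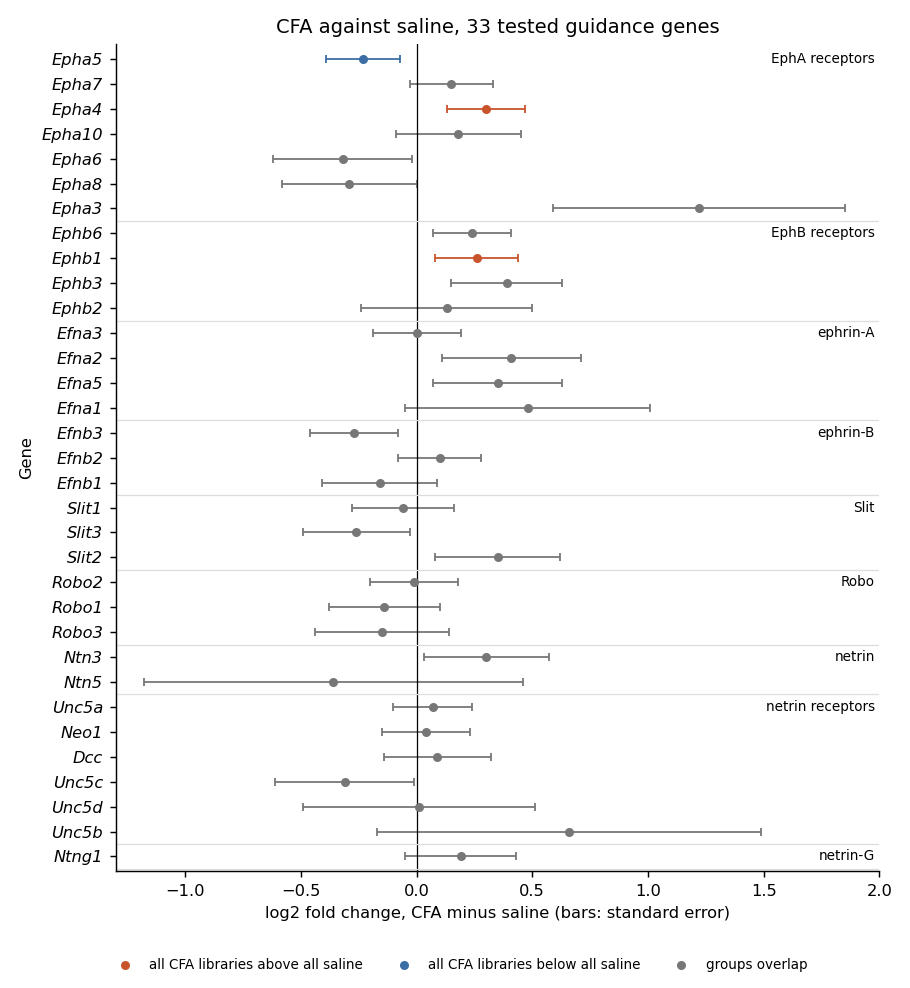
Log2 fold change (CFA minus saline) with its standard error for the 33 tested guidance genes, ordered by role group and level, with colour showing whether the CFA and saline libraries overlap. Epha3 (1.22 ± 0.63) is the point farthest from 0, and the 3 genes without overlap, Epha4, Ephb1 and Epha5, lie at 0.30, 0.26 and -0.23.

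**Figure D4:**
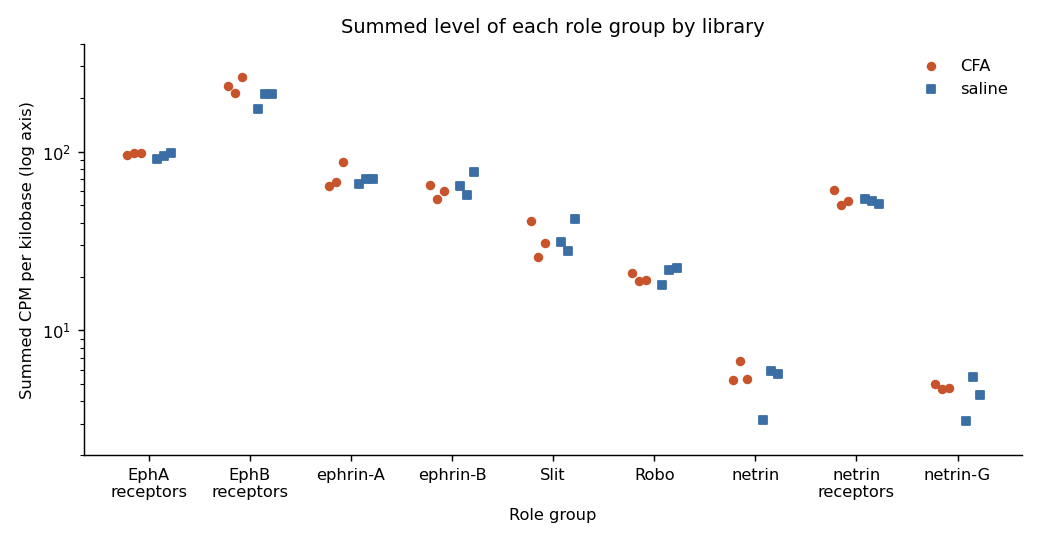
Summed CPM per kilobase of each role group (log axis), with 1 point per library, circles for CFA and squares for saline. The EphB sum, 173 to 261, is the highest in every library, and the netrin and netrin-G sums, 3.13 to 6.71, are the lowest.

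Over the role groups the mean sum ran from 4.57 (netrin-G) to 217 CPM per kilobase (EphB). The EphB sum was 235 ± 24.6 in CFA and 198 ± 21.6 in saline libraries, the EphA sum 97.0 ± 1.40 and 94.4 ± 3.74. The ephrin-A sum was 73.4 ± 12.7 in CFA and 69.0 ± 2.28 CPM per kilobase in saline libraries, and the ephrin-B sum 60.0 ± 5.23 and 66.2 ± 10.0. The netrin receptor sum was 54.7 ± 5.57 and 52.7 ± 1.39, and the Robo sum 19.7 ± 1.10 and 20.7 ± 2.40 (SD, n = 3 libraries each). Single members varied between libraries by a median coefficient of variation of 21.9%, with 11 of 33 under 15% and 3 over 50%.

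Of 64 partner genes listed for the same pathways (binding partners, adaptors and effectors of the cytoskeleton), 63 were tested and 0 were called in edgeR's quasi-likelihood test, DESeq2 or limma-voom. At an unadjusted p under 0.05 there were 2 (3.17%, beside 3.22% of all tested genes), 31 were positive and 32 negative, and the median log2 fold change was -0.005. For 4 of the 63 the groups did not overlap (6.35%, beside 7.51% of all tested genes). Gpc1 and Rgma were higher in CFA, and Dscam and Anks1b were lower. Gpc1, a heparan sulfate proteoglycan of the kind that Slits bind, was at 173, 173 and 235 CPM in CFA and 157, 134 and 129 CPM in saline libraries. Its groups did not overlap, and its log2 fold change was 0.47 ± 0.18 (SE; unadjusted p = 0.0223 and adjusted p = 1 in edgeR's quasi-likelihood test), or 0.31 without CFA replicate 3. Abl2, a kinase downstream of guidance receptors, was at 34.6, 18.7 and 23.9 CPM in CFA and 33.3, 35.4 and 51.4 CPM in saline libraries. CFA replicate 1 overlapped the saline values, with a log2 fold change of -0.63 ± 0.26 (unadjusted p = 0.0297 in edgeR's quasi-likelihood test).

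Dscam, an adhesion molecule that also serves as a netrin receptor, was at 55.8, 58.1 and 59.1 CPM in CFA and 71.5, 81.0 and 69.5 CPM in saline libraries. Its CFA values all lay below its saline values, with a log2 fold change of -0.36 ± 0.18 (SE). Dag1 (dystroglycan, which binds Slits) was at 111, 84.7 and 100 CPM in CFA and 78.6, 78.5 and 87.1 CPM in saline libraries. Saline replicate 3 exceeded CFA replicate 2, and the log2 fold change was 0.27 ± 0.18.

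Anks1, an adaptor of Eph receptors, was at 16.6, 9.70 and 12.7 CPM in CFA and 4.38, 4.82 and 13.8 CPM in saline libraries. Saline replicate 3 lay among the CFA values and the other saline libraries were well below them. The log2 fold change was 0.76 ± 0.43 (SE), and 1.5 without saline replicate 3. Trim67, a ubiquitin ligase that binds Dcc, was at 0.666, 0.176 and 1.15 CPM in CFA and 2.15, 0.556 and 5.27 CPM in saline libraries. These low values overlapped, and the log2 fold change of -1.98 ± 0.93 ran from -2.61 to -1.02 when 1 library was left out.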

How the data were processed

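Nuclear RNA of 6 libraries (3 CFA, 3 saline) was analysed. Per the labels' protocols, 10000 sorted nuclei went into each library, with the Smart-seq V4 kit (9 PCR cycles) and Nextera XT from 300 ng of cDNA. The authors deposited raw counts for each gene, with its exon intervals and exon length, according to the file's columns. The submitters' processing notes name mm10, featureCounts 2.0.1, HISAT2 2.2.1, edgeR 3.32.1, SAMtools 1.13 and Trim Galore. Not given in the sources used here were the strand and multi-mapping settings, so reads of similar family members may have been split or dropped. Exon length, the other deposited column used, is in bases per the file headers.

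Groups and replicate numbers came from the sample titles. All genes were fitted with edgeR 4.0.16 (R 4.3.3): TMM, filterByExpr, the quasi-likelihood test with treatment as the only term, and Benjamini-Hochberg adjustment over 13560 tested genes (threshold 0.05). Standard errors were derived from the F statistic. The procedure was tested on simulated data. CPM used TMM-scaled library sizes. Floors of 3 counts allow for counting error alone: reads were amplified without molecular identifiers and do not stand for separate molecules. No 2 libraries were alike within sampling noise (chi-square over degrees of freedom at least 16.4). Saline replicate 3 stood apart from most others, at 45.9 and 43.3 against saline replicates 1 and 2. It was at 38.6 and 32.9 against CFA replicates 3 and 2, and at 22.1 against CFA replicate 1. Alternatives were RLE and library-total scaling, no filter, a filter of 5 CPM in 3 libraries, limma-voom (limma 3.58.1), DESeq2 1.42.0, a replicate block and leaving out each library.

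The members, marker lists and partner genes were chosen with earlier results of these data known. Values in every library were given for the 2 tested members of each role group with the highest level per kilobase and the 5 members with the smallest p in each direction, and for the partner genes with the 3 smallest p on either side of 0. Other names were chosen after their values were seen. Promoter windows came from RefSeq (GRCm38.p6), taking the start site nearest the counted gene model.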

Additional observations from a re-analysis of the deposited data

How the results depend on the processing

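No guidance or partner gene was called under any of the 13 alternatives. Over all genes, 9 were called without a filter on low counts, 5 by DESeq2, 6 with the replicate block and 0 to 5 when 1 library was left out (5 without saline replicate 3), against 0. Guidance genes at an unadjusted p under 0.05 numbered 2 without a filter (Epha3 and Ntn4, which had a count of 0 in all saline libraries), where 4.12% of all genes passed. They numbered 0 to 4 when 1 library was left out, the 4 (12.1%, Epha3, Efna5, Epha10 and Slit2, all higher in CFA) without saline replicate 3, where 6.75% of all genes passed. Members without overlap numbered 4 to 9 when 1 library was left out, since smaller groups overlap less often. They were 27.3% of members (15.5% of all genes) without CFA replicate 1, 21.2% (16.4%) without CFA replicate 2, 15.2% (13.4%) without CFA replicate 3, 12.1% (17.4%) without saline replicate 1, 18.2% (17.2%) without saline replicate 2 and 21.2% (22.5%) without saline replicate 3. The median log2 fold change of the members ran from -0.012 to 0.149 when 1 library was left out.

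For 14 of the 33 tested members the log2 fold change took both signs when 1 library at a time was left out. They were Efna3 (-0.18 to 0.08, and 0.00 without a filter), Neo1 (-0.11 to 0.15), Robo1 (-0.46 to 0.01), Robo2 (-0.13 to 0.11), Robo3 (-0.30 to 0.17), Slit1 (-0.26 to 0.13), Epha6 (-0.56 to 0.02), Epha8 (-0.47 to 0.03), Epha10 (-0.11 to 0.57), Ephb2 (-0.24 to 0.37), Efnb1 (-0.31 to 0.03), Dcc (-0.05 to 0.22), Unc5d (-0.60 to 0.31, and -0.13 with limma-voom and -0.15 with the replicate block) and Ntn5 (-1.09 to 0.71). The cause was not tested. The labels do not say whether libraries with the same replicate number were prepared together. Their deviations from the group means correlated at -0.079, 0.025 and -0.069 for numbers 1, 2 and 3, and CFA replicate 1 correlated best with saline replicate 3 (0.146). With 3 libraries per group such correlations cannot exclude a pairing. The replicate block called 0 guidance genes.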

Other observations

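Several downstream genes of the same pathways were abundant in these nuclei (chosen after their values were seen). Chn1, the chimaerin that acts below Epha4, averaged 249 ± 39.2 CPM per kilobase (SD, n = 6 libraries), and Ngef, the exchange factor ephexin that binds Eph receptors, 191 ± 23.1. Chn1 was at 1200, 1270 and 1380 CPM in CFA and 1330, 1320 and 853 CPM in saline libraries, with saline replicate 3 far below the rest. Lrrc4c, the ligand of netrin-G1, was at 41.6 ± 3.89 CPM per kilobase, above Ntng1 itself at 4.44 ± 0.775.

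The counted gene models did not always hold all protein-coding exons of the GENCODE M21 annotation of the same build. The lowest shares of those exon bases covered were 44.3% for Ephb2, 51.8% for Efna3, 62.7% for Epha3, 64.4% for Ntn4, 68.3% for Ephb3 and 69.4% for Ntng2. Ephb6 was covered at 99.7%. Of the genes without overlap between CFA and saline, Ephb1 was covered at 71.9%, Epha5 at 76.8% and Epha4 at 99.5%. Levels per kilobase use the counted length, and their dependence on the annotation was not tested.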
